A study of Mus musculus with 18 samples.

Results

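The genes described here are 8 marker genes of red cell formation in mouse liver, chosen by name from the 55450 genes of the GENCODE M21 annotation of build GRCm38. They are the adult α-globin genes *Hba-a1* and *Hba-a2*, the adult β-globin genes *Hbb-bs* and *Hbb-bt*, the heme synthesis gene *Alas2*, and the red cell membrane genes *Slc4a1*, *Ank1* and *Epb42*. RNA came from the liver of pups aged 8 to 9 days. The 2 genotypes were *Mavs*-/- mice, the control, and editing-deficient mice with the genotype *Adar*-/-; *Mavs*-/-. The adaptor MAVS, through which MDA5 signals, was therefore missing from both groups, and no mice with intact *Mavs* were included. The sample titles call the control wild-type, while its genotype tag reads *Mavs*-/-, and the tag is followed here. From each genotype 3 replicates were made of untreated RNA (Input), of RNA digested with RNase A/T1 alone (RNase only), and of RNA digested after binding recombinant MDA5 that lacks its CARD domains (MDA5-protected), 18 libraries in all.

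In newborn mice the liver is still a site of red cell formation, which then moves to bone marrow and spleen. Erythroid precursors divide, load themselves with globin mRNA and heme, build the membrane skeleton that gives the red cell its shape, and lose the nucleus. ADAR1, which edits adenosines of double-stranded RNA into inosines, is known to be needed for it. In whole liver RNA, fewer erythroid cells and less RNA per erythroid cell cannot be told apart.

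The deposited lists hold peaks, stretches of the genome where reads pile up, and no read counts. A peak on a gene's own strand that touched at least 1 base of its annotated exons was counted for that gene. Exonic cover is the percentage of a gene's exon bases, joined over all its transcripts, that lie under such peaks. The Input lists were longer in the editing-deficient mice, with 6991 to 8948 peaks per library, than in *Mavs*-/- mice, with 4326 to 6625. The libraries fitted their label as liver, since all 12 hepatocyte marker genes examined had an Input peak in each of the 6 Input libraries. On *Adar* itself the Input libraries held 1 peak each in editing-deficient replicates 2 and 3, both on exon 2, and none in *Mavs*-/- mice. The part of *Adar* that the mutant allele lacks is not given in the sources used here, so these peaks do not check the genotype, and no library had a peak on *Mavs*.

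Both globin pairs are near-identical copies, so that most 75-base reads cannot be assigned to 1 copy. The coding sequences of *Hba-a1* and *Hba-a2* are 426 bases long without the stop codon and differ at 1 base, written C381T with positions counted from the first coding base. The coding sequences of *Hbb-bs* and *Hbb-bt* are 441 bases long and differ at 1 base, C417T. The stretches around these bases are shown because they are the coding sequence that separates the copies, with the base that differs in capitals. They lie in exon 3 of each gene and are printed in the direction of transcription.
Hba-a1 (chr11:32284328-32284357, plus strand): gcatgcctctctggaCaaattccttgcctc
Hba-a2 (chr11:32297145-32297174, plus strand): gcatgcctctctggaTaaattccttgcctc
Hbb-bs (chr7:103826678-103826707, minus strand): ggtggctggagtggcCgctgccctggctca
Hbb-bt (chr7:103812669-103812698, minus strand): ggtggctggagtggcTgctgccctggctca
Of all 75-base windows of the α-globin coding sequence, 86.9% were the same in both copies, and of the β-globin coding sequence 93.2%. Whole transcripts shared fewer with the other copy, 62.2% for *Hba-a1*, 81.0% for *Hba-a2*, 64.3% for *Hbb-bs* and 56.6% for *Hbb-bt*. The values of the copies of a pair are therefore not independent, and results are also given for each pair joined. The α and β coding sequences shared 55.3% to 55.6% of aligned bases, which is enough to tell the pairs apart.

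The question asked of the Input libraries was whether the erythroid genes were as abundant in editing-deficient liver as in *Mavs*-/- liver. Both measures were lower in the editing-deficient mice: 4 of the 8 genes, *Hba-a1*, *Hba-a2*, *Hbb-bt* and *Alas2*, had a lower exonic cover in all 3 editing-deficient libraries than in any *Mavs*-/- library, and none of the 8 had a higher one. Over all 5274 genes with an exonic Input peak, 3.01% were lower in this way and 16.5% higher. *Epb42* had no peak, and the other 7 genes all had a lower mean cover in the editing-deficient mice, where the mean was lower for 26.0% and higher for 73.0% of all genes tested. The median difference over these 7 genes was -10.6 percentage points, against 3.42 over all genes tested. Peaks were present in 19 of the 24 combinations of gene and library in *Mavs*-/- mice and in 14 of 24 in the editing-deficient mice. Of all 5274 genes, 1935 to 3053 had an exonic peak in a *Mavs*-/- library and 3051 to 3752 in an editing-deficient library. With 3 libraries per genotype the two-sided exact permutation test cannot give a p below 0.1, and after Benjamini-Hochberg adjustment over all genes the smallest value was 0.512.

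**Figure D1:**
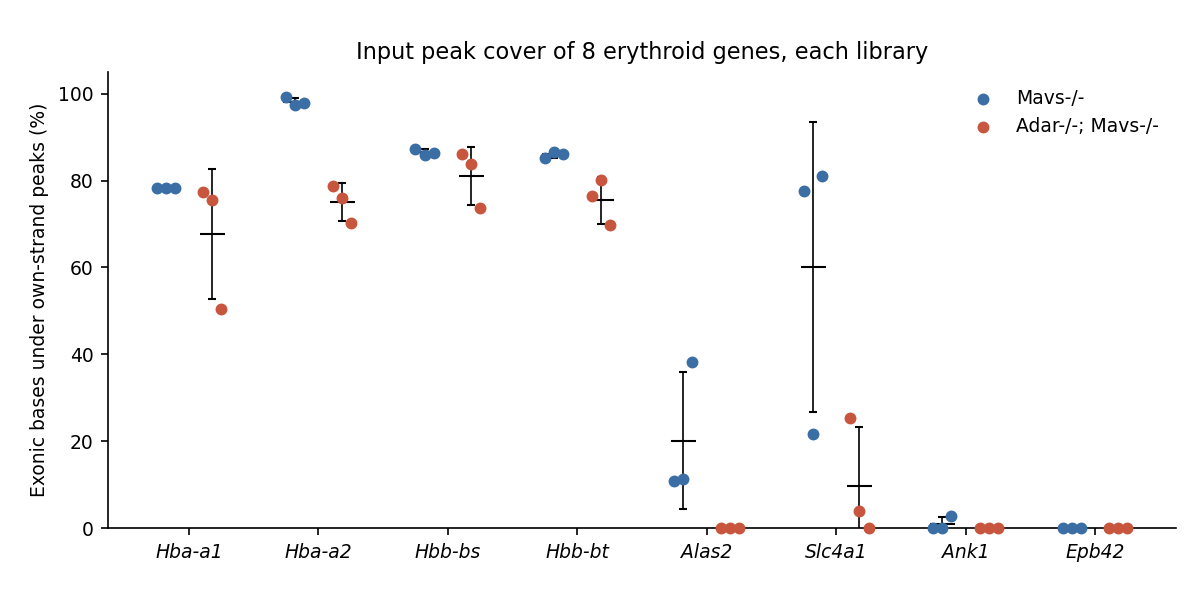
Exonic cover of the 8 erythroid genes by Input peaks, in percent of exon bases, for the 3 *Mavs*-/- libraries (blue) and the 3 editing-deficient libraries (red). Horizontal marks are means and bars are SD; *Hba-a2* stood at 97.5% to 99.3% in *Mavs*-/- mice and at 70.2% to 78.7% in the editing-deficient mice.

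*Hba-a1* and *Hba-a2* encode the α chain of adult hemoglobin and lie side by side on chromosome 11 (32283511–32284465 and 32296489–32297298, plus strand). *Hba-a1* had a cover of 78.3% in each of the 3 *Mavs*-/- libraries, and of 77.3%, 75.5% and 50.5% in editing-deficient replicates 1, 2 and 3. The editing-deficient libraries were all lower, but replicates 1 and 2 only slightly, and without replicate 3 the mean difference went from -10.6 to -1.91 percentage points. *Hba-a2* had a cover of 99.3%, 97.5% and 97.8% in *Mavs*-/- replicates 1, 2 and 3, and of 78.7%, 76.0% and 70.2% in the editing-deficient replicates. Here the groups stood far apart, with a mean difference of -23.2 percentage points (exact permutation p = 0.1), 98.2% ± 0.964 against 74.96% ± 4.37 (SD, n = 3). Joined as 1 unit, the pair had a cover of 87.0% to 87.8% in *Mavs*-/- mice and 59.4% to 78.0% in the editing-deficient mice.

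*Hbb-bs* and *Hbb-bt* encode the β chain and lie on chromosome 7 (103826534–103828096 and 103812524–103813996, minus strand). *Hbb-bt* had a cover of 85.2%, 86.6% and 86.2% in *Mavs*-/- replicates 1, 2 and 3 and of 76.4%, 80.2% and 69.7% in the editing-deficient replicates, without overlap. Its mean cover was 86.0% ± 0.73 against 75.4% ± 5.33 (SD, n = 3). When only peaks that were at least 50% exonic were counted, the difference turned to 6.21 percentage points, as the long peak of *Mavs*-/- replicate 3 across the introns no longer counted and left a cover of 35.9% there. *Hbb-bs* had a cover of 87.2%, 85.9% and 86.5% in the control and of 86.1%, 83.7% and 73.6% in the editing-deficient mice. These groups overlapped, since editing-deficient replicate 1 lay above *Mavs*-/- replicate 2, and the mean difference of -5.43 percentage points was -1.65 without editing-deficient replicate 3. Joined, the pair had 86.3% in each *Mavs*-/- library and 71.7% to 82.1% in the editing-deficient libraries.

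Part of these differences lay in intron 1, because an annotated exon of a second transcript takes in most of it in *Hba-a1* and *Hba-a2* and part of it in *Hbb-bs*. Intron 1 of the 4 globin genes is 113 to 122 bases long. In *Mavs*-/- mice a peak ran across the whole of intron 1 in all 12 combinations of globin gene and library. In the editing-deficient mice this held in 4 of 12. The copies of a pair are not independent, and the share over all genes was not counted. For *Hba-a1* and *Hbb-bs* the whole intron was crossed in 3 of 3 libraries against 2 of 3. For *Hba-a2* and *Hbb-bt* it was 3 of 3 libraries against 0 of 3 (exact permutation p = 0.1 for the covered share of the intron in each gene). The globin genes carried 21 peaks in the 3 *Mavs*-/- libraries and 30 in the 3 editing-deficient libraries. Whole Input lists were also longer in the editing-deficient mice, with 6991 to 8948 peaks per library against 4326 to 6625. Measured on the longest protein-coding transcript alone, *Hba-a2* still did not overlap, at 96.9% to 99.1% against 84.1% to 94.4%, but its mean difference shrank to -7.88 percentage points. A peak ends where its signal sinks below the caller's limit, and what lay behind the joining of exons was not tested.

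**Figure D2:**
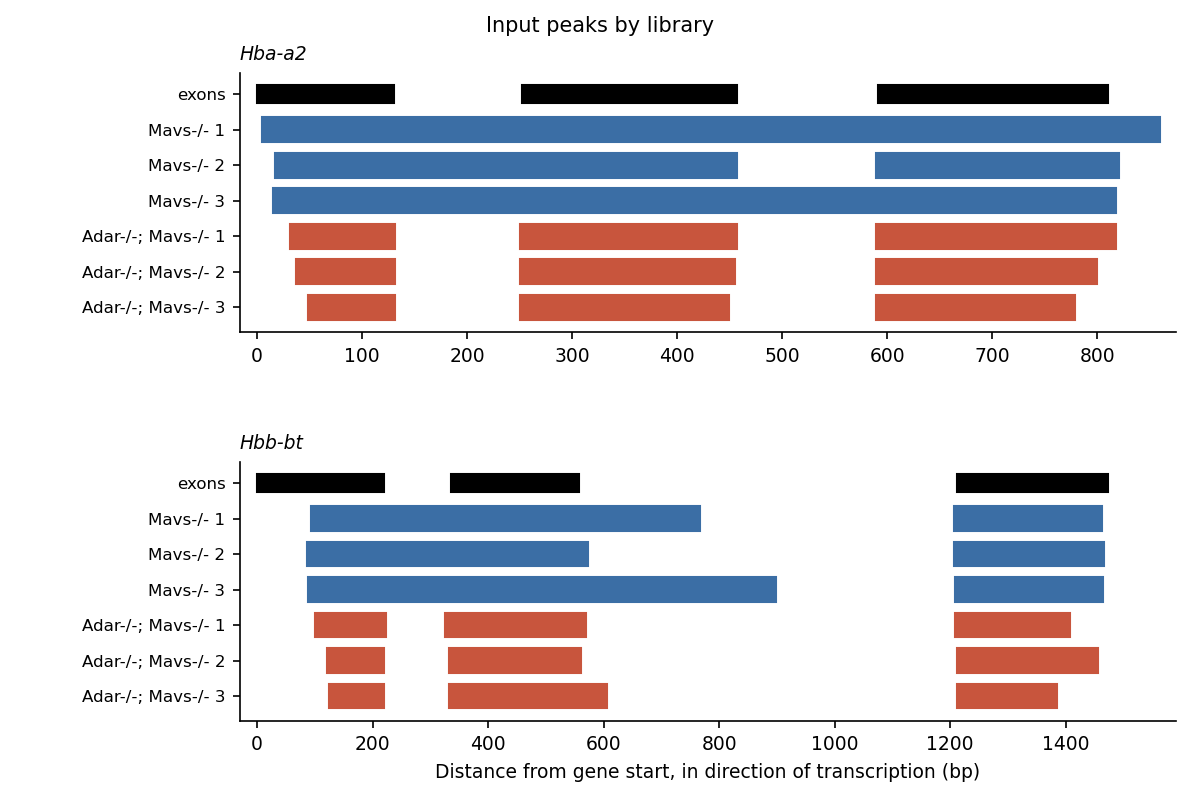
Own-strand Input peaks on *Hba-a2* and *Hbb-bt* in each library, as distance in bases from the gene start in the direction of transcription, with the exons of the longest protein-coding transcript in black. In the 3 *Mavs*-/- libraries (blue) peaks crossed intron 1, and in the 3 editing-deficient libraries (red) they did not, giving 3 peaks per gene and library.

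The summed area under a gene's peaks, which the caller builds from the significance of each base and which is not a read count, was compared on a log2 scale after centring each library on its median gene. This was possible for the 1319 genes with an exonic peak in all 6 Input libraries, among them the 4 globin genes but none of the other 4. All 4 globin genes fell in the editing-deficient mice by limma with Benjamini-Hochberg adjustment over the 1319 genes, of which 8.04% fell and 5.99% rose.

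*Hba-a1* had a centred log2 area of 2.03, 2.14 and 2.01 in the control and 1.20, 0.90 and 0.46 in the editing-deficient mice, a difference of -1.20 ± 0.23 (SE, limma adjusted p = 0.0217). *Hba-a2* had 1.80, 1.90 and 1.75 against 0.88, 0.52 and 0.11, a difference of -1.31 ± 0.24 (limma adjusted p = 0.0205). *Hbb-bs* had 2.11, 2.27 and 2.03 against 1.12, 0.65 and 0.33, a difference of -1.44 ± 0.24 (limma adjusted p = 0.0189). In each of these genes the 3 editing-deficient libraries lay below all 3 control libraries, and replicate 3 was the lowest. *Hbb-bt* had 2.10, 2.22 and 2.10 against 1.10, 0.76 and 0.38, a difference of -1.39 ± 0.23 (limma adjusted p = 0.0189). On the scale of the area, which need not be that of the reads, *Hba-a1* was 2.305-fold lower and *Hba-a2* 2.48-fold. *Hbb-bt* was 2.62-fold lower and *Hbb-bs* 2.71-fold. Joined, the α pair was 2.38-fold lower (limma adjusted p = 0.0216) and the β pair 2.65-fold lower (limma adjusted p = 0.0196).

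The adjusted p-values stood close to the threshold when 1 library was left out. Without editing-deficient replicate 3 all 4 globin genes were past 0.05, with limma adjusted p-values of 0.0611 to 0.0661 and differences of -1.01 to -1.25, and only 1 gene fell and 1 rose among all 1319. Without *Mavs*-/- replicate 1, *Hba-a1* had an adjusted p of 0.0565 and *Hba-a2* of 0.0528 by limma, and without *Mavs*-/- replicate 2 these were 0.0543 and 0.0512. Without editing-deficient replicate 2, *Hba-a1* had a limma adjusted p of 0.0524. No setting turned the direction of a globin gene in area. The median of all 1319 genes was -0.07, and that of the 132 genes with the largest mean area, the top 10%, was -0.24. The globin genes lay at percentiles 79.2 to 84.1 of mean area, and the median of the second 10% from the top was -0.18.

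**Figure D3:**
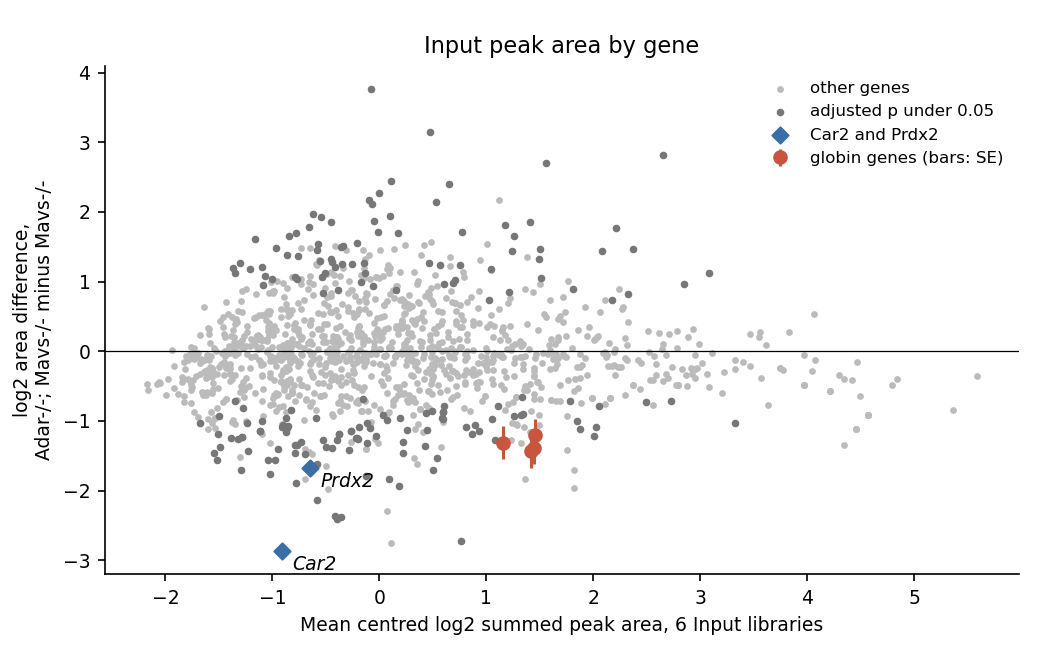
Difference in log2 summed Input peak area between the editing-deficient and *Mavs*-/- mice (vertical axis, negative values lower in the editing-deficient mice) against the mean centred log2 area over the 6 Input libraries, for 1319 genes. The 4 globin genes (red, bars are SE) lay between -1.20 and -1.44, and *Car2* and *Prdx2* (blue diamonds) at -2.87 and -1.68.

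Ranked by area among the same 1319 genes in every library, the globin genes stood at percentiles 86.7 to 90.5 in the *Mavs*-/- libraries and at 53.2 to 79.1 in the editing-deficient libraries, without overlap. The -log10 adjusted p of their strongest peak was 21.5 to 28.0 in the control and 11.2 to 21.1 in the editing-deficient mice. The share of a library's summed peak area on the 4 globin genes was 0.527%, 0.589% and 0.510% in *Mavs*-/- replicates 1, 2 and 3 and 0.260%, 0.196% and 0.140% in the editing-deficient replicates (exact permutation p = 0.1). The groups did not overlap, but the share also moves with the summed area of the whole list, which was larger in all 3 editing-deficient libraries than in any *Mavs*-/- library.

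*Alas2* encodes the erythroid form of the first and rate-limiting enzyme of heme synthesis and lies on chromosome X (150547375–150570638, plus strand). It had an exonic cover of 10.9%, 11.2% and 38.2% in *Mavs*-/- replicates 1, 2 and 3, and no peak in any editing-deficient library. A peak in 3 of 3 *Mavs*-/- libraries and 0 of 3 editing-deficient libraries was found for 0.834% of all genes tested, and the opposite for 5.06%. The mean difference of -20.1 percentage points (exact permutation p = 0.1) was -11.0 without *Mavs*-/- replicate 3, and -6.30 with overlapping groups when only peaks of area 1000 or more were counted. All 3 *Mavs*-/- libraries had a peak on coding exon 9, and replicate 3 had further peaks on exons 6, 8, 10 and 11 of 11. The middle of exon 9 (chrX:150565126-150565155, plus strand) is shown because it is the stretch of *Alas2* with a peak in every control library.
Alas2 exon 9: ggggctctagaatctgtgcgcctactcaag
These peaks were small, with areas of 700.5 to 1159 on exon 9 where the caller's minimum is 500, so that a lack of a peak means a signal below that limit and not a lack of *Alas2* RNA. The exons of *Alas2* overlap by 311 bases those of *Apex2* on the opposite strand, but no cover value of *Alas2* changed when strands were ignored.

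*Slc4a1* encodes band 3, the anion exchanger that is the most abundant protein of the red cell membrane, and lies on chromosome 11 (102348824–102366203, minus strand). It had a cover of 77.5%, 21.7% and 81.0% in *Mavs*-/- replicates 1, 2 and 3, and of 25.3%, 3.80% and 0% in the editing-deficient replicates. The spread among the *Mavs*-/- mice was wide and the groups overlapped, since editing-deficient replicate 1 was above *Mavs*-/- replicate 2. The mean difference of -50.4 percentage points was the largest of the 8 genes, with an exact permutation p of 0.2. It was -69.6 without *Mavs*-/- replicate 2 and -58.2 without editing-deficient replicate 1, and in both cases the groups no longer overlapped. Of the 20 exons of its longest protein-coding transcript, 15, 6 and 17 carried a peak in the *Mavs*-/- libraries and 4, 1 and 0 in the editing-deficient libraries.

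Among the genes with a peak in a library, which were more in the editing-deficient mice, *Slc4a1* ranged from percentile 98.4 of area in *Mavs*-/- replicate 3 to percentile 12.7 in editing-deficient replicate 2. Exon 10 had a peak in *Mavs*-/- replicates 1 and 3 and in editing-deficient replicates 1 and 2, and its middle (chr11:102357132-102357161, minus strand) is shown because it lies under the one peak of the gene in editing-deficient replicate 2.
Slc4a1 exon 10: cccacagacgccccttcagaaaaagctctg
With every Input library reduced to its 4326 strongest peaks, the size of the smallest list, *Slc4a1* had 72.3%, 21.7% and 79.4% in the control and 21.3%, 0% and 0% in the editing-deficient mice, without overlap. At that equal list size 5 of the 8 genes were lower without overlap and none higher, where 6.71% of the 3591 genes tested were lower and 10.7% higher. The mean cover was lower for all 6 of the 8 genes with a peak, where 42.6% of all genes were lower.

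**Figure D4:**
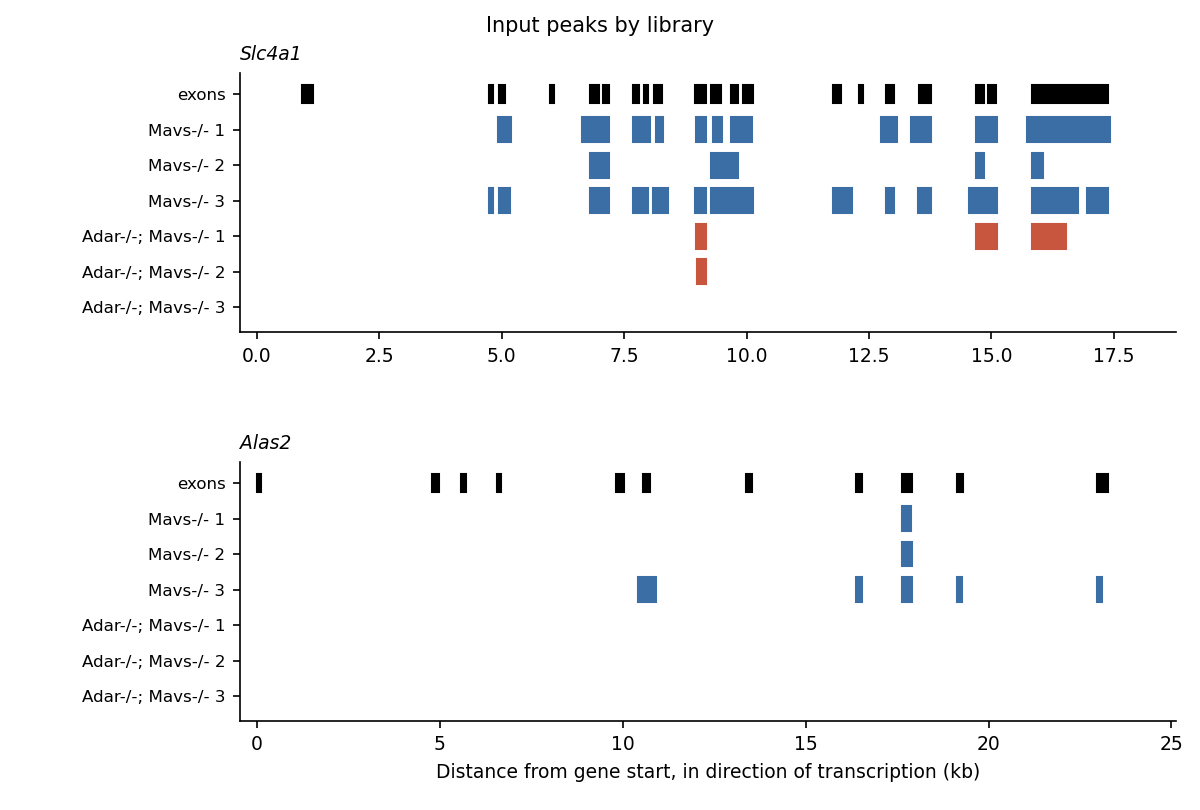
Own-strand Input peaks on *Slc4a1* and *Alas2* in each library, as distance in kb from the gene start in the direction of transcription, with the exons of the longest protein-coding transcript in black. *Slc4a1* had peaks on 15, 6 and 17 exons in the *Mavs*-/- libraries (blue) and on 4, 1 and 0 in the editing-deficient libraries (red), and *Alas2* had peaks in the *Mavs*-/- libraries only.

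*Ank1* encodes ankyrin-1, which ties band 3 to the spectrin skeleton, and *Epb42* encodes protein 4.2, which binds both. *Ank1* (chromosome 8, 22974844–23150497, plus strand) had Input peaks in *Mavs*-/- replicate 3 alone, on exons 27 and 30 of 44, which covered 2.74% of its exon bases. The exact permutation test gave p = 1, and without that library it had no Input peak. *Epb42* (chromosome 2, 121017891–121037072, minus strand) had no peak on either strand in any of the 18 libraries. Neither gene could be compared between genotypes at the depth of these lists.

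Other genes of the same cells were followed in lists of heme synthesis genes, red cell membrane and skeleton genes, erythroid transcription factors and genes of erythroid maturation, 56 genes beside the 8. Of these, 33 had an Input peak, 4 were lower in the editing-deficient mice without overlap and 2 were higher, where 3.01% of all genes tested were lower and 16.5% higher. The mean cover was lower in 27 of the 33, where 26.0% of all genes tested were lower. Much of this rested on *Mavs*-/- replicate 3, the longest *Mavs*-/- list, since 12 of the 33 genes had a peak there and in no other library. Among the 12 was the transcription factor gene *Tal1*, with a cover of 9.73%. Without that library 21 of the 56 genes had a peak, and the mean was lower in 13 and higher in 8, where 20.4% of all genes were lower. In that setting 4 genes were lower without overlap and 3 higher, where 4.85% of all genes were lower and 23.5% higher. With equal list sizes 22 of the 56 genes had a peak. Their mean was lower in 17 and higher in 5, where 42.6% of all genes were lower.

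In the maturation list all 8 genes with a peak had a lower mean cover, where 26.0% of all genes tested were lower. Without overlap 3 were lower, where 3.01% of all genes were. Of the 8 genes, 3 had a peak in *Mavs*-/- replicate 3 and in no other library. Without that library 5 genes had a peak, all 5 with a lower mean cover and 3 without overlap. *Car2*, which encodes carbonic anhydrase 2 of the red cell, had a cover of 33.7%, 38.0% and 45.0% in the control and 17.3%, 13.7% and 13.6% in the editing-deficient mice. *Prdx2*, which encodes an abundant peroxidase of red cells, had 30.9%, 26.4% and 24.8% against 9.87%, 21.02% and 7.84%. Both also fell in area on the log2 scale. The difference was -2.87 ± 0.20 for *Car2* (SE, limma adjusted p = 0.00101) and -1.68 ± 0.33 for *Prdx2* (limma adjusted p = 0.0232). In the editing-deficient libraries the *Car2* areas were 520.6, 683.6 and 586.1, near the caller's minimum of 500, and those of *Prdx2* 874.1, 1881 and 752.8. The SE and adjusted p of *Car2* are to be read with that limit. *Tfrc*, the transferrin receptor that brings iron into erythroblasts, had 8.68%, 3.27% and 25.7% in the control and no peak in the editing-deficient libraries. None of *Car2*, *Prdx2* and *Tfrc* is specific to the red cell line. *Klf1*, the gene of an erythroid transcription factor, had 52.4%, 0% and 46.5% in the control and no peak in the editing-deficient mice, so that its groups overlapped at 0.

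Of 8 heme synthesis genes with a peak, 1 was lower without overlap and 1 higher. *Urod*, a middle step of the pathway, had 22.5%, 16.5% and 35.4% in the control and 15.9%, 0% and 0% in the editing-deficient mice. *Alas1*, the form of the first enzyme that the liver cell itself uses, had 0%, 0% and 3.61% against 6.53%, 20.8% and 16.2%, and so differed from *Alas2* in direction. Of 11 membrane and skeleton genes with a peak, 10 had a lower mean cover, 3 of 6 without *Mavs*-/- replicate 3, and the 1 gene without overlap, *Epb41* for protein 4.1, was higher, with 8.53%, 0% and 11.4% against 12.2%, 16.5% and 14.7%. Of 6 transcription factor genes with a peak none was apart, and the mean cover was lower in 4 and higher in 2. None of the 6 embryonic and minor globin genes had an Input peak in any library. The area fit held 3 heme synthesis genes, with a median log2 difference of 0.146. None of these 3 fell or rose at an adjusted p of 0.05. The fit also held 1 membrane and skeleton gene, *Aqp1*, and 0 transcription factor genes. *Aqp1* fell, at -0.65 (limma adjusted p = 0.0486). Its cover overlapped between genotypes, with means of 77.0% in the control and 73.8% in the editing-deficient mice.

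**Figure D5:**
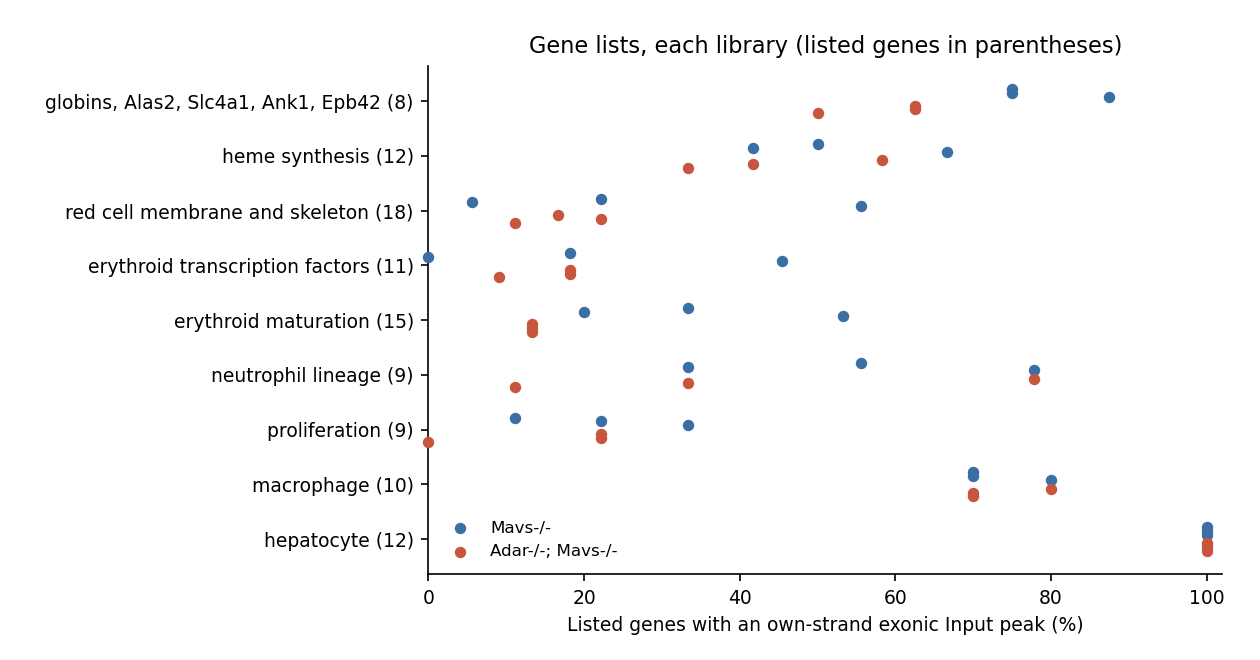
Percentage of the genes of each list with an own-strand exonic Input peak in each library, for 3 *Mavs*-/- (blue) and 3 editing-deficient libraries (red), with the number of listed genes in parentheses. Of the 8 genes described here 6, 6 and 7 had a peak in the *Mavs*-/- libraries and 5, 5 and 4 in the editing-deficient libraries, while the 12 hepatocyte genes had a peak in every library.

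Genes that handle released hemoglobin and iron in liver were counted beside them. Of 9 with a peak, none was lower without overlap and 2 were higher, near the 16.5% of all genes that were higher, and the mean cover was lower in 4 and higher in 5. The 2 were *Hmox1*, which encodes the heme-degrading oxygenase, with 28.4%, 58.2% and 58.2% in the control and 59.6%, 78.5% and 79.3% in the editing-deficient mice, and *Hamp*, which encodes the iron hormone hepcidin. *Hamp* had 46.8%, 0% and 55.9% in the control and 90.2%, 92.4% and 87.6% in the editing-deficient mice. By area, *Slc40a1*, the iron exporter ferroportin, fell by 0.71 ± 0.17 on the log2 scale (SE, limma adjusted p = 0.0350). *Hamp* had no peak in 1 control library and was not in that fit, and *Hmox1* had a difference of 0.97 ± 0.36 (limma adjusted p = 0.101).

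Markers of other cells were measured in the same way. In the proliferation list 3 of 9 genes had an Input peak, and the list held 0.0837% to 0.229% of a library's peak area in *Mavs*-/- mice and 0% to 0.0147% in the editing-deficient mice. This rested on *Mki67*, which had a cover of 41.8%, 65.7% and 72.5% in the control and 3.71%, 2.95% and 0% in the editing-deficient mice. *Pcna* had a mean cover of 8.28% against 8.54%, and *Top2a* had a peak in *Mavs*-/- replicate 3 alone. In the neutrophil list 8 of 9 genes had a peak, with 0.0802% to 0.205% of the area in the control against 0.00479% to 0.193% in the editing-deficient mice, the lowest in replicate 3. *S100a9* of that list had 82.8%, 83.5% and 86.2% against 82.4%, 30.7% and 0%, and was the 1 gene of the list without overlap. *Mpo* had a higher mean in the editing-deficient mice, 23.4% against 10.3%, and *Prtn3* had a peak in 1 of their libraries and in no control library. The defining genes of megakaryocytes, 6 of 6, had no peak in any Input library. The part of these cells in the erythroid result was not tested.

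In the macrophage list 8 of 10 genes had a peak, none was lower without overlap, and *Cd5l* and *Marco* were higher; for this list and the next 2 the counts of higher genes are to be read against 16.5% of all genes. *Marco*, a scavenger receptor gene, had 10.8%, 10.6% and 10.6% in the control and 19.8%, 44.1% and 38.9% in the editing-deficient mice, and *Cd5l* had 69.7% to 87.2% against 89.1% to 90.7%. Of the 12 hepatocyte genes none was lower without overlap and 2 were higher, *Tat* with 46.0% to 78.0% against 92.9% to 93.3% and *Cps1* with 70.7% to 87.1% against 87.6% to 93.3%. By area *Tat* rose by 1.77 ± 0.42 on the log2 scale (SE, limma adjusted p = 0.0342), *Ttr* changed by -1.09 ± 0.23 (limma adjusted p = 0.0266), close to the globin genes, and *Cps1* had a difference of 0.28 ± 0.29 (limma adjusted p = 0.547). Of 7 endothelial genes, 6 had a peak and *Clec4g* was higher, with 0% to 7.15% against 15.8% to 29.3%. In the lymphocyte list 1 of 5 genes had a peak, and its groups overlapped.

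The genes whose area over the 6 Input libraries was most like the mean of the 4 globin genes were *Hist1h3c* (Pearson r = 0.9998), *Hist1h4f* (r = 0.993), *Hist1h2aj* (r = 0.992), *Lipa* (r = 0.990) and *Scarb1* (r = 0.983). The first 3 encode core histones, which dividing cells make during S phase, *Lipa* encodes lysosomal acid lipase and *Scarb1* the HDL receptor. All 5 fell in the editing-deficient mice, from -0.90 for *Scarb1* to -1.39 for *Hist1h4f* on the log2 scale (limma adjusted p of 0.0205 to 0.0257). These values were picked as the highest among 1319 genes, share their libraries and the genotype difference, and are a description.

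The digested libraries were searched for the same genes, to see whether any of their RNA resisted RNase or was protected by MDA5. Peaks in these libraries were called against Input and mark enrichment over it, not amount. None of the 4 globin genes, *Alas2*, *Slc4a1* or *Epb42* had an RNase only or an MDA5-protected peak on either strand, exonic or intronic, in any of the 12 digested libraries. Of the 1319 genes with Input peaks in all 6 libraries, 29.6% had an own-strand exonic RNase only peak in at least 1 library and 5.31% an MDA5-protected one, where for the 4 globin genes it was 0 of 4 in both fractions. For the 5274 genes with any Input peak these shares were 29.8% and 4.91%.

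*Ank1* alone had peaks after digestion, and only without MDA5. RNase only replicate 3 of the *Mavs*-/- mice held a peak at the 5′ end of the gene on its own strand (chromosome 8, 22974739–22975000), which reached across the annotated start and covered 157 bases of exon 1, with an area of 598.7. The opposite strand had a peak of area 607.4 at nearly the same place (22974794–22975042) in the same library, so that fragments of both strands were found there. That library stood out in strand. Of its peaks, 16.7% touched an exon of a gene on the opposite strand, against 3.98% to 6.14% in the other RNase only libraries. An antisense gene also overlaps 862 exon bases of *Ank1*, and whether it does so at this place was not examined. RNase only replicate 1 of the editing-deficient mice held a peak of area 555.7 on the opposite strand inside an intron, 192 bases long (23104109–23104300). The 3 peaks lay near the caller's minimum of 500, each was seen in 1 library, and for the exonic one the genotypes compared with an exact permutation p of 1.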

How the data were processed

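Total liver RNA was sequenced as strand-specific, single-end reads of 75 bases after rRNA depletion. Per the labels and the study's methods, adapters were removed by the authors (Trim Galore 0.6.6), NextGenMap placed the reads on GRCm38, and peaks were called per library by Genrich 0.6.1 at an adjusted p of at most 0.01, an area of at least 500 and joining within 20 bp. Digested libraries were called against Input. The deposited narrowPeak files give each peak's area, a score without a fixed range, and -log10 p and q values; the other score column was not used.

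From these, exonic cover and summed area per gene were computed with Python 3.11.15 (exons of GENCODE M21, own strand, at least 1 base of overlap). Cover was compared by non-overlap of 3 against 3 libraries and by the two-sided exact permutation test, and area with limma 3.58.1 on log2 values over genes with a peak in all 6 Input libraries, at an adjusted p of 0.05. Both were tested on simulated data. The peak lists hold no read depth. The study states biological triplicates, and no label ties replicates to litters or batches. Named were the 8 genes, *Adar* and *Mavs*. Also named were listed genes without overlap (at most 6 per list) and the 5 genes most like the globins in area. *Tal1*, *Klf1*, *Slc40a1*, *Apex2*, *Pcna*, *Top2a*, *Mpo*, *Prtn3*, *Ttr* and *Aqp1* were named after their values were seen. The genes and lists were chosen with earlier results of these data known. *Ahsp* and *Tf* were not found by symbol in the annotation.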

Additional observations from a re-analysis of the deposited data

How the results depend on the processing

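The limits of these results are those of peak lists: the lists hold no read depth, area is not a read count, and the absence of a peak is a signal below the caller's limit. The count of erythroid genes with lower Input cover was 4 of 8. It was 3 of 8 with a minimum area of 1000 and with peaks at least 50% exonic, 3 of 6 with the globin copies joined, 5 of 8 with equal list sizes, and 4 to 6 of 8 without 1 library. The median difference over the erythroid genes was -12.8 percentage points with a minimum area of 1000, -16.6 with equal list sizes, -7.88 on the longest protein-coding transcript, -16.2 with copies joined, -9.32 without both replicates 3 (chosen after seeing the data), and -15.3 to -7.71 without 1 library. The cover of *Hbb-bt* alone changed sign, to 6.21, when peaks had to be at least 50% exonic, because the long peak of *Mavs*-/- replicate 3 then dropped out (35.9% left). *Alas2* overlapped with a minimum area of 1000, at -6.30.

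Over all genes, those lower and higher in cover numbered 159 and 870. They were 83 and 389 with a minimum area of 1000, 241 and 384 with equal list sizes, 290 and 1489 without both replicates 3, and 192 to 289 and 995 to 1328 without 1 library, where fewer libraries overlap less. The excess of peaks in *Mavs*-/- mice, 5 combinations of gene and library, was 2 with a minimum area of 1000 (a difference of -2).

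By area, 106 genes fell and 79 rose. Without the filter on missing genes, which were set to the smallest deposited area, 188 fell and 237 rose around a median of all genes of -0.29, against -0.07, and the globin genes stood 1.06 below that median (a difference of -1.06). Without both replicates 3 the numbers were 1 and 3, and without 1 library 1 to 123 and 1 to 85. Of the globin units 2 of 2 fell when joined, 0 of 4 without both replicates 3, and 0 to 4 without 1 library. With the area of the largest single peak *Hba-a1* had a limma adjusted p of 0.0623. Directions held under quantile and cyclic loess normalization (the second chosen after seeing the data). The *Ank1* RNase only peak was lost with a minimum area of 1000 (0 genes), and the count was 0 to 1 without 1 library. No MDA5-protected peak appeared under any alternative.

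Pairing of the samples by replicate number was not seen: same-numbered libraries of the 2 genotypes correlated at 0.11, -0.02 and 0.06 in their deviations. Not every library correlated best with its own number. These are deviations from means of 3 libraries and cannot exclude a pairing. With the replicate block, 251 genes were lower and 1154 higher in cover in all 3 same-numbered pairs, *Hbb-bs* and *Slc4a1* among the lower ones, and by area 87 fell and 74 rose, with limma adjusted p-values of 0.0372 to 0.0404 for the globin genes.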
